A study of Mus musculus with 8 samples.

Results

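Collagens are the triple-helical proteins that build the fibrils, sheets and anchors of the extracellular matrix, and their transcripts were followed here in the distal colon of mice given dextran sulfate sodium (DSS). The family was taken as every gene symbol made of Col, a type number, the letter a and a chain number. That rule found 44 genes among 55418 symbols, of which 11 code for fibrillar chains, 8 for basement membrane chains and 25 for other types. Of the 44 genes, 36 passed the filter on low counts and were tested, and 8 did not.

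Total RNA was sequenced from distal colon in 4 groups of 2 mice, all C57BL/6 and 8 to 10 weeks old. They were ΔNFκB mice given DSS, wild-type (WT) mice given DSS, and untreated mice of either genotype. DSS, which injures the colon epithelium, was given at 3% for 4 days and was followed by 4 days of normal water. ΔNFκB is the labels' name for mice with an altered locus of the long noncoding RNA NAIL. Which bases differ, and in which cells the change acts, the labels do not say, and they name no litters or batches.

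Total counts ran from 9229861 to 16935961 per library. The gene taken from general knowledge to be mouse NAIL, Gm16685, was counted at 55 and 86 reads in ΔNFκB DSS, 57 and 126 in WT DSS, 3 and 4 in untreated ΔNFκB and 3 and 20 in untreated WT libraries, so after DSS the genotypes overlapped. By Y-linked transcripts, all 4 DSS mice were female, both untreated ΔNFκB mice were male, and of the untreated WT mice replicate 1 was female and replicate 2 male. DSS and sex therefore cannot be told apart in ΔNFκB mice, whereas the genotypes after DSS were compared within females. Sex was also unbalanced in the DSS response of WT mice, between the untreated genotypes and in the difference of the DSS responses. In untreated WT replicate 2, the summed collagen CPM (TMM-normalised read count, scaled to a common library size) was 1440 and the summed smooth muscle markers 4415, against 2683 and 8477 in replicate 1. Ribosomal RNA genes outside the mitochondria took 6.07% and 5.09% of the counts in ΔNFκB DSS, 6.70% and 3.46% in WT DSS, 1.83% and 0.813% in untreated ΔNFκB, and 1.26% and 0.687% in untreated WT libraries. With these, mitochondrial, immunoglobulin and T cell receptor genes left out of the fit together, 78 called collagen values kept their call and 1 lost it. Any other part of the ribosomal RNA share in the results was not tested.

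A collagen chain is a long repeat of glycine followed by a pair of other residues, and 3 chains wind into a triple helix. Most fibrillar chains keep their main repeat without a break and pack into cable-like fibrils. Types I, III and V are the main ones in the gut wall. Basement membrane chains carry many breaks in the repeat, and type IV chains join into the flexible sheets beneath epithelium, around vessels and around muscle cells. In the intestine, fibroblasts, smooth muscle cells, pericytes and endothelial cells are known sources of collagen. In whole tissue, fewer cells of a type and less RNA per cell cannot be told apart.

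This repeat can be read in the genes. Per the GENCODE M21 annotation of GRCm38 (mm10), fibrillar chains had a longest unbroken run of glycine triplets of 338 (median, range 216 to 344). The median was 41 (30 to 66) in basement membrane chains and 52 (23 to 113) in the other chains. Exons of 54 bases, which code for 6 triplets, made up a median of 46.3% of the coding exons of fibrillar genes, 4.05% in basement membrane genes and 8.11% in the others. The 3 main fibrillar chains are shown by 1 such exon each, with the glycine codons in capitals, and type IV and XVIII by the 54 coding bases in which their longest run ends.
Col1a1, exon 26, chr11:94944355-94944408, plus strand: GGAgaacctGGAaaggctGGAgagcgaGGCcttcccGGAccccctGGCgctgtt
Col1a2, exon 27, chr6:4524117-4524170, plus strand: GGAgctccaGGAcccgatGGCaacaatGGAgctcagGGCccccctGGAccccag
Col3a1, exon 26, chr1:45334761-45334814, plus strand: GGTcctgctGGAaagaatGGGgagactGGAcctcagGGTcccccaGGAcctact
Col4a1, chromosome 8, codons 154 to 171: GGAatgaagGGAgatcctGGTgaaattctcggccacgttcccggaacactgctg
Col18a1, chromosome 10, codons 1034 to 1051: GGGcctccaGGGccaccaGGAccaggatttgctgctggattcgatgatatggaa
In the 3 fibrillar exons a capital codon opens each group of 9 bases from end to end. In the Col4a1 and Col18a1 stretches the capitals stop after the last triplet of the run.

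The collagen genes of the colon spanned a wide range of levels. Per length, as TPM (a length-scaled read count), 16 of the 44 genes had a group mean of at least 10, and 16 stayed under 1 in every library. The most abundant was Col3a1, the type III chain, at 59.1 ± 20.5 TPM in ΔNFκB DSS, 209 ± 51.3 in WT DSS, 141 ± 8.22 in untreated ΔNFκB and 148 ± 90.3 in untreated WT colon (SD, n = 2 each). Col3a1 made up 22.8% of all collagen TPM in ΔNFκB DSS, 20.8% in WT DSS, 27.3% in untreated ΔNFκB and 28.7% in untreated WT colon. Next in WT DSS colon came Col4a1 at 141 ± 49.5 TPM and Col1a1 at 128 ± 10.7 TPM, then Col4a2, Col6a1, Col1a2 and Col18a1 between 53.2 and 89.4 TPM. The ranges of mean ± SD of neighbours in that order overlapped, except those of Col1a1 and Col4a2. At the other end, Col2a1, the cartilage fibril chain, had 0 counts in all 8 libraries, which allows up to 3 counts in each. The other untested genes were Col4a3, Col6a6, Col9a1, Col10a1, Col17a1, Col19a1 and Col26a1. The cartilage and bone marker list was at or near 0 as well, except for Sox9, which intestinal crypt cells are also known to express.

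The summed collagen transcripts were lowest in the ΔNFκB DSS libraries and highest in the WT DSS libraries. The sum was 1202 and 914 CPM in ΔNFκB DSS, 3205 and 4779 in WT DSS, 2174 and 2148 in untreated ΔNFκB and 2683 and 1440 in untreated WT colon. No ΔNFκB DSS library reached any other library, and both WT DSS libraries lay above all others. With 2 mice a group an exact permutation test cannot go below p = 0.333, so the sums are given without one. Basement membrane chains took 22.5% and 22.2% of collagen TPM in ΔNFκB DSS, 27.8% and 31.5% in WT DSS, 19.1% and 17.4% in untreated ΔNFκB and 18.6% and 17.1% in untreated WT libraries. Their share was thus higher in every DSS library than in every untreated library. Fibrillar chains held between 48.7% and 54.3% of collagen TPM in all 8 libraries.

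**Figure D1:**
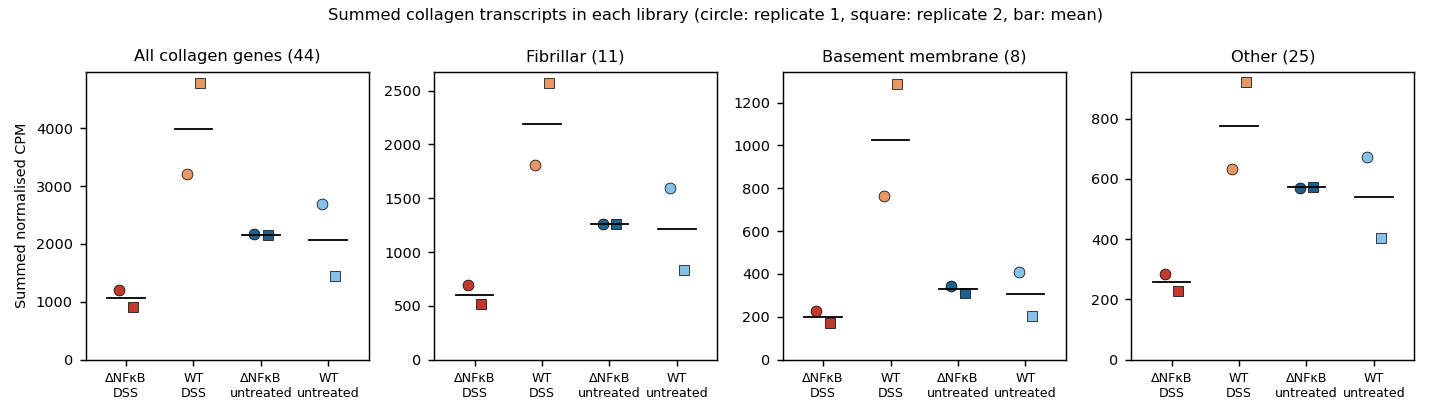
Summed normalised CPM (vertical axes, starting at 0) of all collagen genes and of the 3 classes in each library, by group. Points are mice and bars are means of 2; both ΔNFκB DSS libraries lie below every other library for all genes (1202 and 914 CPM), fibrillar genes and other genes, but replicate 1 lies above untreated WT replicate 2 for basement membrane genes (225 and 206 CPM).

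The first comparison asked how ΔNFκB and WT colon differed after the same DSS course. Collagen transcripts were lower in ΔNFκB DSS colon across classes: 23 of the 36 tested genes fell below the WT DSS level and none rose (edgeR quasi-likelihood test, Benjamini-Hochberg adjusted p under 0.05). That is 63.9% of the tested collagen genes. Among all 17522 genes tested, 20% were called in this comparison, 8.32% higher and 11.7% lower. The median log2 fold change over the collagen genes was -1.73, against 0.03 over all genes. The fold change was negative for all 36 genes, and in 34 of them both ΔNFκB DSS libraries lay below both WT DSS libraries, as they did in 32.6% of all tested genes. Col8a2 and Col9a3 overlapped. By class, 9 of 10 fibrillar, 5 of 7 basement membrane and 9 of 19 other genes were lower. The count fell to 3 without ΔNFκB DSS replicate 2 (Col1a1, Col5a3 and Col18a1), to 12 without WT DSS replicate 2 and to 15 without ΔNFκB DSS replicate 1. Without ΔNFκB DSS replicate 2 the calls over all genes also fell, to 484 in place of 3499.

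Among fibrillar chains, the largest fall was in Col5a3, which codes for the third chain of type V collagen, a regulator of fibril diameter. Col5a3 had 6.25 and 4.02 CPM in ΔNFκB DSS colon, against 39.5 and 70.1 CPM in WT DSS colon. Every ΔNFκB DSS value was under the lowest WT DSS value, and the log2 fold change was -3.41 ± 0.37 (SE, adjusted p = 0.00257), a 10.7-fold lower level. Col1a1, the major chain of type I collagen, had 131 and 84.3 CPM in ΔNFκB DSS colon, against 368 and 437 CPM in WT DSS colon. The groups did not overlap, and the log2 fold change was -1.90 ± 0.24 (adjusted p = 0.00318). Col3a1 had 306 and 251 CPM in ΔNFκB DSS colon, against 792 and 1185 CPM in WT DSS colon. This most abundant chain was 3.55-fold lower (log2 -1.83 ± 0.34, adjusted p = 0.00982). The partner chains moved alike: Col1a2 fell by 1.71, Col5a1 by 1.87 and Col5a2 by 1.93 on the log2 scale, with adjusted p of 0.0064, 0.00862 and 0.0129. Of the low-level fibrillar genes, Col27a1 fell by 2.21, Col24a1 by 2.19 and Col11a1 by 2.89, the last on 3 and 6 reads in ΔNFκB DSS libraries against 20 and 55 in WT DSS libraries. Col11a2 was the 1 tested fibrillar gene not called, at -0.52 ± 0.40 (adjusted p = 0.386).

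Among basement membrane chains, Col18a1, whose cleaved end is endostatin, had 28.4 and 18.5 CPM in ΔNFκB DSS colon, against 129.7 and 230.4 CPM in WT DSS colon. The groups were far apart, with a log2 fold change of -2.94 ± 0.32 (adjusted p = 0.00251), or 7.67-fold lower. Col4a1 and Col4a2 code for the chains of the type IV network present in nearly all basement membranes. Col4a1 had 114 and 81.2 CPM in ΔNFκB DSS colon, against 368 and 645 CPM in WT DSS colon (log2 -2.37 ± 0.39, adjusted p = 0.00658). Col4a2 had 63.6 and 49.9 CPM in ΔNFκB DSS colon, against 218 and 352 CPM in WT DSS colon (log2 -2.33 ± 0.32, adjusted p = 0.00369). The pair fell by nearly the same amount. Col15a1, a basement membrane proteoglycan related to type XVIII, fell by 1.76 (adjusted p = 0.0313) and Col4a5 by 1.10 (adjusted p = 0.0362), whereas Col4a6 at -0.96 ± 0.67 was not called (adjusted p = 0.339). For Col4a4 there was 1 read in the 2 ΔNFκB DSS libraries together and 9 in the WT DSS libraries, an 8.23-fold lower level. Its 95% counting interval of 1.14 to 361 covers counting error only. In the edgeR quasi-likelihood test Col4a4 was not called (log2 -2.81 ± 1.48, adjusted p = 0.21).

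Of the other types, Col7a1 codes for the anchoring fibrils that tie basement membrane to the stroma. It was counted at 15 and 5 reads in ΔNFκB DSS libraries and 56 and 105 in WT DSS libraries, a log2 fold change of -2.86 ± 0.50 (adjusted p = 0.00833). The 3 main chains of the beaded-filament type VI collagen were lower together. Col6a1 had 48.9 and 45.5 CPM in ΔNFκB DSS colon, against 136 and 196 CPM in WT DSS colon (log2 -1.82 ± 0.28, adjusted p = 0.00571). Col6a2 fell by 1.70 and Col6a3 by 1.50, while the less common chains Col6a4 and Col6a5 were not called (adjusted p = 0.286 and 0.321). Of the chains that decorate fibrils, Col14a1 fell by 1.41 (adjusted p = 0.00618), Col16a1 by 1.54 (adjusted p = 0.00543) and Col20a1 by 1.18 (adjusted p = 0.0442). Of the transmembrane collagens, Col23a1 fell by 1.95, and Col13a1 fell by 2.33. Col12a1, another fibril-associated chain, had 50.4 and 39.1 CPM in ΔNFκB DSS colon, against 78.0 and 185 CPM in WT DSS colon. Its groups did not overlap, but the log2 fold change of -1.56 ± 0.49 did not pass (adjusted p = 0.0569).

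**Figure D2:**
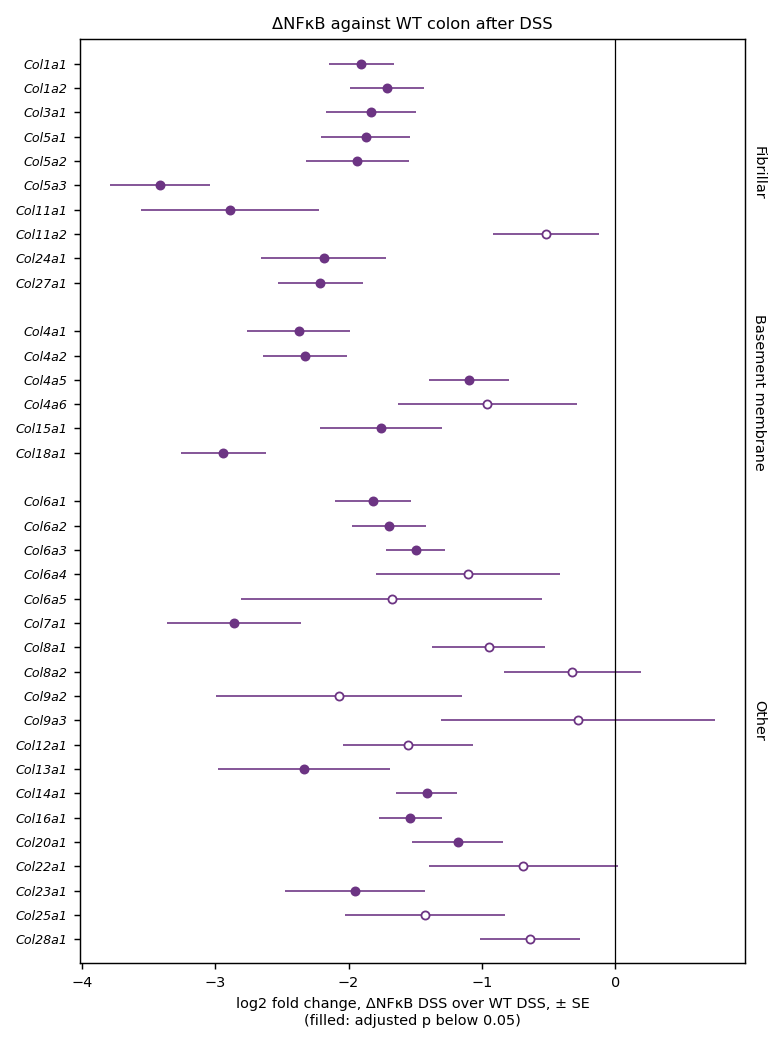
Log2 fold change of each tested collagen gene, ΔNFκB DSS over WT DSS (horizontal axis), with its SE from the edgeR fit of 8 libraries; filled points had an adjusted p below 0.05. All points lie left of 0, Col5a3 furthest at -3.41; Col4a4, with 1 read in ΔNFκB DSS, is not drawn.

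In WT mice, DSS went with more transcripts of many collagens and fewer of a small group. Compared with untreated WT colon, 14 of 36 tested genes rose and 4 fell in WT DSS colon. The 18 called genes are 50% of those tested. Over all genes 36% were called, 17.2% higher and 18.8% lower. The median log2 fold change was 0.77 for the collagen genes and 0.00 for all genes. The higher genes were 7 of 10 fibrillar, 3 of 7 basement membrane and 4 of 19 other genes; the lower ones were 1 basement membrane gene and 3 others. A fit with a library left out has a lone mouse in a group, and its share over all genes is not given here. In 20 collagen genes both DSS libraries lay above both untreated libraries and in 4 below, against 36% and 35.4% of all tested genes. Without WT DSS replicate 2 the total fell to 9 called genes, with Col1a1, Col4a2, Col5a3, Col7a1, Col18a1 and Col27a1 still higher.

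The largest rise in WT mice was in Col18a1, at 129.7 and 230.4 CPM after DSS, against 24.5 and 17.6 CPM untreated. Both DSS libraries lay far above both untreated ones, and the log2 fold change was 3.10 ± 0.32 (adjusted p = 0.000406), or 8.58-fold. Col7a1 had 5.41 and 9.61 CPM in WT DSS colon, against 0.798 and 1.27 CPM in untreated WT colon (log2 2.83 ± 0.48, adjusted p = 0.00342). Col5a3 had 39.5 and 70.1 CPM after DSS and 13.7 and 8.45 CPM untreated in WT mice, a log2 rise of 2.32 ± 0.34 (adjusted p = 0.00192). Col27a1, a fibrillar chain best known from cartilage, had 24.9 and 20.3 CPM in WT DSS colon, against 7.03 and 4.36 CPM in untreated WT colon (log2 2.00 ± 0.31, adjusted p = 0.0023). Col4a1 rose by 1.75 ± 0.38 and Col4a2 by 1.84 ± 0.31 (adjusted p = 0.00909 and 0.00326). Type I rose too, Col1a1 by 1.34 ± 0.24 (adjusted p = 0.0041) and Col1a2 by 1.02 ± 0.27 (adjusted p = 0.0209). Col5a1 rose by 1.34 and Col11a2 by 1.73, and smaller rises were called for Col24a1 and the 3 main type VI chains, between 0.67 and 1.23. Of 10 other settings of the analysis, Col24a1 lost this call in 5, Col6a1 in 3, and Col6a2 and Col6a3 in 2 each. The abundant Col3a1 was not called in WT mice. It had 792 and 1185 CPM after DSS and 941 and 444 CPM untreated, so the groups overlapped, with a log2 fold change of 0.51 ± 0.33 (adjusted p = 0.246).

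The genes that fell in WT DSS colon were Col14a1, Col8a1, Col8a2 and Col4a4. Col14a1, a fibril-associated chain that marks a population of intestinal fibroblasts, had 9.66 and 13.1 CPM after DSS, against 71.5 and 54.2 CPM untreated. Its groups were well apart, and the log2 fold change was -2.46 ± 0.19 (adjusted p = 0.000166). Col8a1 and Col8a2 code for the chains of type VIII collagen, a network former of vessel walls and of the cornea. Col8a2 had 0.386 and 0.641 CPM in WT DSS colon, against 3.43 and 3.09 CPM in untreated WT colon, on 4 and 7 reads after DSS (log2 -2.63 ± 0.39, adjusted p = 0.00196). Col8a1 fell by 1.19 ± 0.39 (adjusted p = 0.0426) and Col4a4 by 2.41 ± 0.78 (adjusted p = 0.0421). The Col4a4 value rested on 5 and 4 reads after DSS, against 13 and 52 untreated. Col8a1 and Col4a4 each lost this call in 5 of 10 other settings of the analysis.

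In ΔNFκB mice no collagen gene rose with DSS. Compared with untreated ΔNFκB colon, 18 of 36 genes fell in ΔNFκB DSS colon, 3 of 10 fibrillar, 3 of 7 basement membrane and 12 of 19 other genes. The called share was again 50%. Over all genes 35.4% were called, 16.2% higher and 19.2% lower. Counts with a library left out come from fits with a lone mouse in a group, and are given without the share over all genes. The collagen median was -1.11, against -0.04 for all genes, and in 29 genes both DSS libraries lay below both untreated ones, as in 37.9% of all tested genes. The count was 5 without ΔNFκB DSS replicate 2, 7 without untreated ΔNFκB replicate 1 and 10 without either of the other ΔNFκB libraries.

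The largest fall among the well-counted genes was again in Col14a1, at 4.20 and 4.33 CPM in ΔNFκB DSS colon, against 60.7 and 69.6 CPM in untreated ΔNFκB colon. The replicates were close and the groups far apart, with a log2 fold change of -3.93 ± 0.22 (adjusted p = 6.11e-05), or 15.2-fold lower. Col4a5 had 6.66 and 5.56 CPM in ΔNFκB DSS colon, against 25.9 and 26.2 CPM in untreated ΔNFκB colon (log2 -2.09 ± 0.29, adjusted p = 0.0014). Its neighbour Col4a6 had 1.74 and 2.16 CPM after DSS and 26.8 and 7.97 CPM untreated in ΔNFκB mice (log2 -3.15 ± 0.63, adjusted p = 0.00621). Together, the α5 and α6 chains form a type IV network known from the basement membrane around smooth muscle, and the smooth muscle marker list fell with DSS in both genotypes. Its sum was 1197 and 1202 CPM in ΔNFκB DSS, 1750 and 1393 in WT DSS, 6860 and 7127 in untreated ΔNFκB and 8477 and 4415 in untreated WT libraries, and 12 of 12 markers were lower with DSS in each genotype. The part of muscle content in these collagen values was not tested. In WT mice, Col4a5 at -0.64 ± 0.27 and Col4a6 at -0.76 ± 0.59 did not pass (adjusted p = 0.100 and 0.335).

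Type VIII and type VI chains also fell in ΔNFκB mice. Col8a2 fell by 2.72 ± 0.42 (adjusted p = 0.00197) and Col8a1 by 1.84 ± 0.41 (adjusted p = 0.0104), and Col6a1, Col6a2 and Col6a3 fell by 1.16, 0.86 and 0.89. Col3a1 had 306 and 251 CPM in ΔNFκB DSS colon, against 684 and 676 CPM in untreated ΔNFκB colon, and fell by 1.29 ± 0.33 (adjusted p = 0.0183). Col1a2 fell by 0.95 ± 0.27 (adjusted p = 0.0274), but Col1a1 at -0.67 ± 0.24 missed the threshold (adjusted p = 0.0573). Col7a1 fell by 1.85 ± 0.51, Col16a1 by 1.20 ± 0.24 and Col23a1 by 1.89 ± 0.52. Several genes that rose with DSS in WT mice were not called in ΔNFκB mice: Col18a1 stood at 0.27 ± 0.32, Col4a1 at -0.65 ± 0.37, Col4a2 at -0.58 ± 0.31 and Col5a3 at -0.99 ± 0.38 (adjusted p = 0.534, 0.21, 0.173 and 0.071). For Col4a4, 1 read in the 2 DSS libraries against 23 in the untreated ones (17 and 6) gave a 17.9-fold lower level. Its 95% counting interval of 2.91 to 738 covers counting error only. In the edgeR quasi-likelihood test Col4a4 was called lower (log2 -3.90 ± 1.29, adjusted p = 0.0453), a call lost in 4 of 9 other settings.

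**Figure D3:**
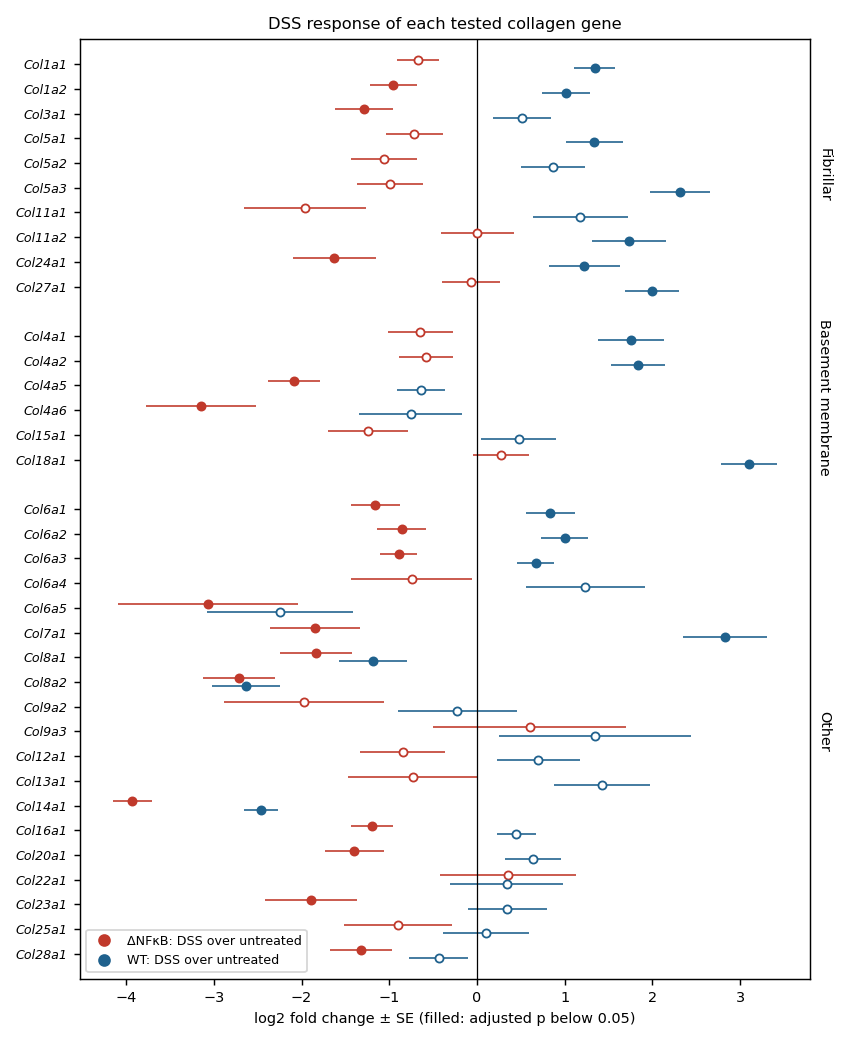
Log2 fold change with DSS of each tested collagen gene (horizontal axis) with its SE, in ΔNFκB mice (red) and in WT mice (blue); filled points had an adjusted p below 0.05. The WT points of 27 of the 36 tested genes lie right of 0 and those of ΔNFκB mice mostly left of it; Col4a4 is not drawn.

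The difference between the DSS responses of the genotypes was tested in itself, as the ΔNFκB response minus the WT response, with sex not balanced. It was negative for 35 of 36 collagen genes and passed the threshold in 20, all lower, which is 55.6% of the tested genes. Over all genes, 17.7% were called, 8.63% higher and 9.07% lower. The collagen median was -1.89, against -0.05 over all genes, and 9 of 10 fibrillar, 4 of 7 basement membrane and 7 of 19 other genes were called. The count was 4 without ΔNFκB DSS replicate 2 (Col1a1, Col5a3, Col7a1 and Col18a1), 5 without WT DSS replicate 2 and 8 without untreated ΔNFκB replicate 1. Each of these fits has a lone mouse in a group. The share of all genes called in them is not given here, so a general loss of calls cannot be told apart. The largest difference was in Col7a1 at -4.68 ± 0.70 (adjusted p = 0.00866), then Col5a3 at -3.31 ± 0.50 (adjusted p = 0.00876). Next came Col11a1 at -3.14, on few reads, Col24a1 at -2.85 and Col18a1 at -2.83 ± 0.44 (adjusted p = 0.0437, 0.0222 and 0.00907). Type I differed by -2.01 ± 0.34 for Col1a1 and -1.97 ± 0.38 for Col1a2. Of the 36 tested collagen genes, a set of 6 rose with DSS in WT and fell in ΔNFκB mice: Col1a2, Col24a1, Col6a1, Col6a2, Col6a3 and Col7a1. Among called collagen genes, that is 42.9% of the WT risers and 33.3% of the genes that fell in ΔNFκB mice. Of all tested genes, 0.965% were called in these opposite directions, 0.177% with a sex term and 0.925% with a replicate block. This share over all genes also moved with the library left out. The sex term rests on the untreated WT mice, the only group with both sexes. The set was not stable: with a sex term none of the 6 was in it and 4 others were (Col1a1, Col4a1, Col4a2 and Col5a1), and with the replicate block 3 of the 6 were left. It held 0 genes without ΔNFκB DSS replicate 2 or untreated ΔNFκB replicate 2, 1 without untreated ΔNFκB replicate 1, 2 without WT DSS replicate 2, 3 without ΔNFκB DSS replicate 1 or untreated WT replicate 2, and 11 without untreated WT replicate 1. Col14a1, Col4a4, Col8a1 and Col8a2 fell in both genotypes, all 4 of the WT decreases and 22.2% of the ΔNFκB ones. Over all genes, 18.8% were lower with DSS in WT mice and 19.2% in ΔNFκB mice. The share of all genes lower in both is not given here. Of the 4 collagen genes, Col14a1 differed between the responses (-1.47 ± 0.29, adjusted p = 0.0159). Col8a2 at -0.08 ± 0.57 and Col8a1 at -0.65 ± 0.56 did not pass (adjusted p = 0.933 and 0.439). The WT calls of Col4a4 and Col8a1 and the ΔNFκB call of Col4a4 were not kept in every setting.

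**Figure D4:**
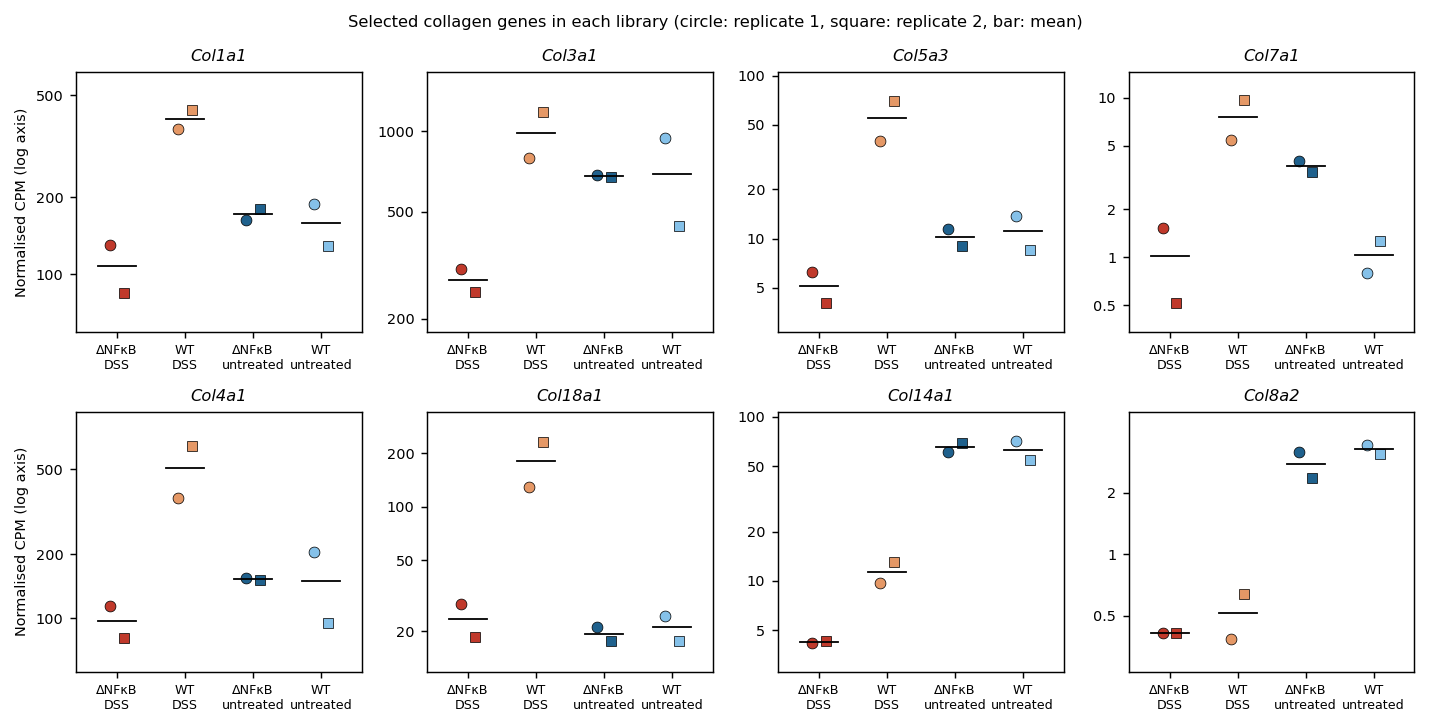
Normalised CPM (log axes) of 8 collagen genes in each library, by group; points are mice and bars means of 2. Col1a1, Col5a3, Col4a1 and Col18a1 are highest in the WT DSS libraries, while Col14a1 and Col8a2 are low in all 4 DSS libraries.

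Without DSS, no collagen gene was called between ΔNFκB and WT colon (edgeR quasi-likelihood test). At an unadjusted p under 0.05 there were 4, and the share of all genes at that cut was not counted. DESeq2 and limma-voom also called 0, and edgeR with no count filter called 1, Col7a1. Over all genes 0.388% were called at the adjusted threshold, 0.0399% higher and 0.348% lower. Sex was not balanced here, as both untreated ΔNFκB mice were male and the untreated WT mice of either sex. Col7a1 had 4.02 and 3.42 CPM in untreated ΔNFκB colon, against 0.798 and 1.27 CPM in untreated WT colon, with no overlap (log2 1.82 ± 0.49, adjusted p = 0.171). Col4a6 had 26.8 and 7.97 CPM in untreated ΔNFκB colon, against 8.94 and 4.02 CPM in untreated WT colon, and its groups overlapped (log2 1.43 ± 0.54, adjusted p = 0.263). For the abundant chains Col1a1, Col3a1, Col4a1, Col5a1 and Col6a1 the log2 fold change lay between -0.03 and 0.18. A p that misses the threshold with 2 mice a group does not show that levels were equal.

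Ratios of TPM between chains were followed within each library. Of chains that assemble together, Col4a1 to Col4a2 was 1.59 and 1.44 in ΔNFκB DSS, 1.50 and 1.62 in WT DSS, 1.63 and 1.56 in untreated ΔNFκB and 1.76 and 1.50 in untreated WT libraries. The groups overlapped in that ratio. Col1a1 to Col1a2 was 1.78 and 1.69 in ΔNFκB DSS, 2.18 and 1.86 in WT DSS, 1.38 and 1.49 in untreated ΔNFκB and 1.52 and 1.71 in untreated WT libraries, so both WT DSS libraries lay above all others. Col6a1 to Col6a2 ran from 1.85 to 2.28 over the 4 DSS libraries and from 2.26 to 2.57 over the 4 untreated ones, which overlapped. Between types, Col3a1 to Col1a1 was 1.56 and 1.99 in ΔNFκB DSS, 1.44 and 1.81 in WT DSS, 2.80 and 2.52 in untreated ΔNFκB and 3.34 and 2.30 in untreated WT libraries. Col4a1 to Col3a1 was 0.491 and 0.426 in ΔNFκB DSS, 0.611 and 0.716 in WT DSS, 0.298 and 0.293 in untreated ΔNFκB and 0.287 and 0.282 in untreated WT libraries. In both genotypes, then, type III was lower relative to types I and IV in each DSS library, without a test at this sample size.

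The type IV genes lie head to head in pairs, which is why their starts are shown. Col4a2 (chr8:11312805-11449287, plus strand) and Col4a1 (chr8:11198423-11312826, minus strand) overlap by the first 22 annotated exon bases of each, printed here from the plus strand.
Col4a1 and Col4a2, chr8:11312805-11312826: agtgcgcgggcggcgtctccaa
The starts of Col4a3 and Col4a4 lie 71 bases apart on chromosome 1, and those of Col4a5 and Col4a6 1308 bases apart on the X chromosome. No source used here gives the strand setting of the counting, so reads on the shared bases, 0.295% of the exon bases of Col4a1, could be assigned to neither gene with certainty. Of the pairs, Col4a1 and Col4a2 rose in WT DSS colon, Col4a5 and Col4a6 fell in ΔNFκB DSS colon, and Col4a4 rested on few reads.

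RefSeq promoter windows (GRCm38.p6, 250 bases before to 50 after the start) were at hand for 35 of the 44 genes, as 38 windows. The GC box GGGCGG, sought on both strands, was in 23 windows, 60.5% against 35.7% of all 32851 windows. The CCAAT box was in 34.2% against 37.4%, the TATA box TATAAA in 13.2% against 13.6% and the AP-1 site TGANTCA in 2.63% against 7.81%. A match to the NF-κB consensus was in 4 windows, 10.5% against 4.51%, those of Col27a1, Col6a4, Col9a1 and Col9a2. The windows of Col3a1, the most abundant chain, and of Col27a1, called in 3 comparisons, are printed up to the start. Capitals mark the TATAAA match of Col3a1 and the NF-κB match of Col27a1.
Col3a1, chr1:45311288-45311537, plus strand: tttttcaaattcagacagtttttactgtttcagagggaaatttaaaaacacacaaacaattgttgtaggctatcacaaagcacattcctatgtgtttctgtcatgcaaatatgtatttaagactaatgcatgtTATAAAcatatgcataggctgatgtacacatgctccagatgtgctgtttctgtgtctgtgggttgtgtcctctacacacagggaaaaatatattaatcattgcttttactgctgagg
Col27a1, chr4:63215162-63215411, plus strand: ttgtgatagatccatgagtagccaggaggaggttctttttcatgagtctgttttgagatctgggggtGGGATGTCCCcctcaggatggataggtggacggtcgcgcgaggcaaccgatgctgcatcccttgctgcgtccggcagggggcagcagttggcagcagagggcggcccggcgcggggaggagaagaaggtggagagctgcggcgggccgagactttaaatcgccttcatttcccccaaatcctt
These matches describe letters in a window and are not binding sites.

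Genes that make, process and break down collagen were followed as lists, to be read against the 8.32% of all genes called higher and 11.7% called lower in ΔNFκB than in WT colon after DSS. In the list for procollagen hydroxylation, glycosylation and folding, 7 of 19 genes fell and 2 rose, P4hb, a subunit of prolyl 4-hydroxylase, and Sec24d, a coat protein of export vesicles that is also in the export list. The lower ones included Plod2, a lysyl hydroxylase, at 8.50 and 8.14 CPM in ΔNFκB DSS colon, against 23.5 and 38.9 CPM in WT DSS colon (log2 -1.91 ± 0.28, adjusted p = 0.00461), and the prolyl 3-hydroxylase family member P3h3 (log2 -1.88 ± 0.22, adjusted p = 0.00278). Of the export genes 2 of 9 were higher, Sar1b by 0.55 ± 0.15 and Sec24d by 0.36 ± 0.11 (adjusted p = 0.0343 and 0.0452), and none lower; neither was called when any 1 of the DSS or untreated ΔNFκB libraries was left out. Of the propeptide-cleaving genes 6 of 7 fell, among them Adamts2, which trims the amino end of procollagen (log2 -2.27 ± 0.29, adjusted p = 0.00318), and Bmp1, which trims the carboxyl end (log2 -1.86 ± 0.35, adjusted p = 0.0102). Of the cross-linking genes 4 of 6 fell. Lox, the lysyl oxidase that starts cross-links, had 5.12 and 4.53 CPM in ΔNFκB DSS colon, against 25.2 and 83.0 CPM in WT DSS colon (log2 -3.48 ± 0.57, adjusted p = 0.00673). Loxl1 fell by 1.85 ± 0.35 (adjusted p = 0.0104).

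Of 14 fibril-associated proteoglycans and regulators 9 fell, Dcn (decorin) by 2.83 ± 0.35 and Tnxb (tenascin X) by 1.43 ± 0.19 (adjusted p = 0.00305 and 0.00365). Of 22 degradation and uptake genes 13 fell and none rose, including Mmp9, a gelatinase, at 4.00 and 3.81 CPM in ΔNFκB DSS colon, against 24.5 and 21.4 CPM in WT DSS colon (log2 -2.55 ± 0.20, adjusted p = 0.00108). The inhibitor Timp2 fell by 1.83 ± 0.15 (adjusted p = 0.00127). Of 11 collagen receptors 3 fell and 8 were not called, with the discoidin receptor Ddr2 at -1.98 ± 0.22 and the integrin chain Itga1 at -1.43 ± 0.24 (adjusted p = 0.00257 and 0.00738). Of 12 genes of the transforming growth factor beta pathway 9 fell and 1 rose, with the receptor Tgfbr2 at -0.80 ± 0.12 (adjusted p = 0.00516).

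The lists were also counted with DSS in each genotype. In ΔNFκB mice 1 of 6 cross-linking genes rose and 1 fell, 3 of 22 degradation genes rose and 7 fell, and 13 of 14 proteoglycans and regulators fell, against 16.2% of all genes higher and 19.2% lower. In WT mice 3 of 6 cross-linking genes rose and none fell, 9 of 22 degradation genes rose and 2 fell, and 9 of 14 proteoglycans and regulators fell, against 17.2% of all genes higher and 18.8% lower. Lox rose by 2.69 ± 0.53 in WT mice (adjusted p = 0.00638), and its responses differed by -3.88 ± 0.78 (adjusted p = 0.0169). Counts given below with a library left out come from fits with a lone mouse in a group. Without ΔNFκB DSS replicate 2 the calls over all genes between genotypes after DSS fell as well. Between the responses, 5 of 7 propeptide-cleaving, 8 of 14 proteoglycan, 9 of 22 degradation and 7 of 12 transforming growth factor beta genes were lower, against 9.07% of all genes. Without ΔNFκB DSS replicate 2 these counts were 0, 2, 3 and 2. Without the same library, the after-DSS counts of lower genes were 1 of 19 folding, 1 of 7 cleavage, 0 of 6 cross-linking, 3 of 14 proteoglycan, 4 of 22 degradation, 1 of 11 receptor and 2 of 12 transforming growth factor beta genes; without WT DSS replicate 2 they were 3, 1, 2, 4, 8, 2 and 3 in these lists.

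Markers of the cell types that make collagen were compared in the same libraries. Counts after DSS are to be read against 11.7% of all genes called lower and 8.32% called higher in ΔNFκB than in WT colon. The fibroblast list summed to 1664 and 1678 CPM in ΔNFκB DSS, 2053 and 2683 in WT DSS, 1888 and 2152 in untreated ΔNFκB and 2094 and 1775 in untreated WT libraries. A single member, Ly6a, carried 1094 and 1156 CPM of it in ΔNFκB DSS, 654 and 744 in WT DSS, 113 and 139 in untreated ΔNFκB and 171 and 391 in untreated WT libraries. The other 13 markers summed to 570 and 522 CPM in ΔNFκB DSS, 1398 and 1939 in WT DSS, 1774 and 2014 in untreated ΔNFκB and 1923 and 1384 in untreated WT libraries, so without Ly6a both ΔNFκB DSS libraries lay below all others. After DSS 10 of 14 fibroblast markers were lower in ΔNFκB colon; 4 of the 14 (Dcn, Dpt, Fn1, Lum) are also in the proteoglycan list. Pericyte markers summed to 71.1 and 65.3 CPM in ΔNFκB DSS, against 328 and 446 in WT DSS libraries, and 5 of 6 were lower. Endothelial markers summed to 56.2 and 41.6 CPM in ΔNFκB DSS, against 171 and 243 in WT DSS libraries, and 10 of 12 were lower. Of the smooth muscle markers 1 of 12 was lower, of the mesothelial markers 1 of 6 and of the skeletal muscle markers 0 of 3. Glia and neuron markers summed to 16.4 and 12.5 CPM in ΔNFκB DSS, against 81.8 and 84.1 in WT DSS libraries, with 8 of 10 lower. Epithelial markers, which check the tissue, summed to 11487 and 12014 CPM in ΔNFκB DSS, against 8765 and 8171 in WT DSS libraries, and 5 of 10 were higher. Without ΔNFκB DSS replicate 2, the counts were 4 of 14 fibroblast, 4 of 6 pericyte, 2 of 12 endothelial, 0 of 12 smooth muscle and 6 of 10 glia and neuron markers lower and 0 of 10 epithelial markers higher, and without either untreated WT library 5 of 12 smooth muscle markers were lower. Without WT DSS replicate 2, 5 fibroblast and 4 endothelial markers were lower and 0 epithelial markers higher. Fits with a library left out hold a lone mouse in a group, and without ΔNFκB DSS replicate 2 the calls over all genes fell as well. The fibroblast, pericyte, endothelial and glial sums were lower in ΔNFκB DSS colon, as the collagen sum was, and the epithelial sum was higher. The part of these cell types in the collagen results was not tested.

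**Figure D5:**
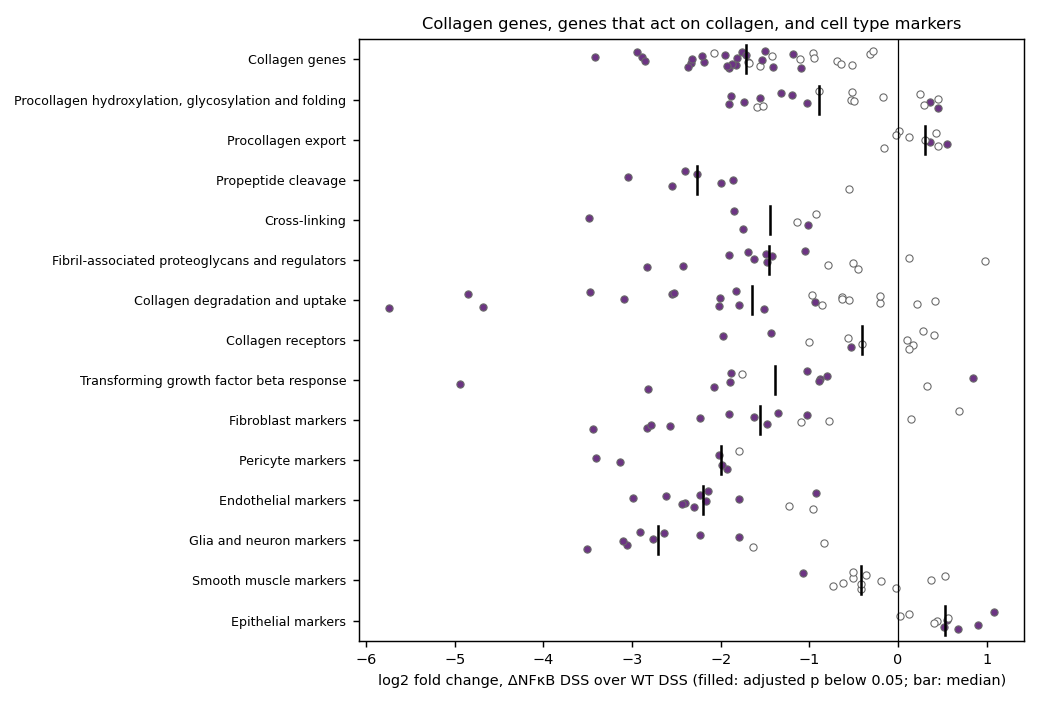
Log2 fold change, ΔNFκB DSS over WT DSS (horizontal axis), of each tested member of the collagen family, of the lists of genes that act on collagen and of the cell type markers; filled points had an adjusted p below 0.05 and bars are list medians. The procollagen export and epithelial rows centre right of 0; Col4a4 is not drawn.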

How the data were processed

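RNA of 8 distal colon libraries (TruSeq Total RNA, HiSeqX, paired reads, per the labels) was aligned and counted by the authors with HISAT2 2.1, SAMtools 1.8, featureCounts and Subread 1.6.2 on mm10, per the submitters' processing notes. No source used here gives the annotation release or the strand setting. The authors' 2 deposited tables hold unnormalised expected counts: tested at exact equality, 18.8% of the values above 0 were fractional and the tables differed in 0 values. The values were rounded, although whole counts had been assumed, and 115 symbols on more than 1 line were summed.

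Members, classes and gene lists were chosen with earlier results of these data known. An edgeR 4.0.16 quasi-likelihood fit (R 4.3.3, limma 3.58.1) of 4 group means used filterByExpr and TMM factors (0.882 to 1.15) and adjusted p (Benjamini-Hochberg) over 17522 genes, with 0.05 as the threshold and two-sided tests. SE is the absolute log2 fold change over the square root of F. TPM used exon lengths of GENCODE M21. A floor of 3 counts and 95% exact counting intervals take in counting error alone, because no molecular identifiers were used. The text names members past the threshold in a comparison, those with a group mean of at least 10 TPM, the type IV pairs and, of other lists, the 2 smallest p; a few of these were left to counts. The fit was tested on simulated data. Alternatives were other factors, filters and samples, DESeq2 1.42.0, limma-voom, a replicate block, a sex term (male above 5 CPM of Y-linked transcripts) and each library left out. Running them on the list counts and on the genes called in opposite directions, and summing the fibroblast markers without Ly6a, was chosen after seeing the data. The labels do not say that mice came from separate litters, so p-values measure the spread between these mice.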

Additional observations from a re-analysis of the deposited data

Results flagged for a closer look

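In 20 collagen genes the response to DSS differed between ΔNFκB and WT mice by a test of the difference itself (edgeR quasi-likelihood test, adjusted p from 0.00866 to 0.0437), each with the lower response in ΔNFκB mice. As the log2 response of ΔNFκB minus that of WT mice, the fibrillar genes stood at -2.01 (Col1a1), -1.97 (Col1a2), -1.80 (Col3a1), -2.05 (Col5a1), -1.93 (Col5a2), -3.31 (Col5a3), -3.14 (Col11a1), -2.85 (Col24a1) and -2.06 (Col27a1). The basement membrane genes stood at -2.40 (Col4a1), -2.42 (Col4a2), -1.45 (Col4a5) and -2.83 (Col18a1). The others stood at -2.00 (Col6a1), -1.86 (Col6a2), -1.56 (Col6a3), -4.68 (Col7a1), -1.47 (Col14a1), -1.65 (Col16a1) and -2.04 (Col20a1). Sex was not balanced in this contrast: the DSS mice were female, the untreated ΔNFκB mice male and the untreated WT mice of either sex.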

How the results depend on the processing

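Across 18 alternatives, 0 of 79 called collagen values changed direction; 18 of them kept their call with each library left out, and 56 with every other setting. With a library left out, called collagen genes numbered 9 to 21 for DSS in WT, 5 to 22 for DSS in ΔNFκB, 0 to 0 between untreated genotypes, 3 to 25 between genotypes after DSS and 4 to 22 for the difference of responses; the lone mouse of that group was then assumed to vary like the others, and the lower counts came with fewer samples. With no count filter 1 gene (Col7a1) was called between untreated genotypes; the cause was not tested. Among uncalled values, Col18a1 with DSS in ΔNFκB mice became -0.21 with a sex term and ran from -0.056 to 0.58 with a library left out, and the Col8a2 difference ran from -0.37 to 0.33 with a library left out; the cause was not tested. Upper quartile factors and no count filter moved the all-gene median of the difference of responses to -0.14 and -0.17.

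The replicate numbers were not shown to pair mice: deviations of same-numbered mice correlated at -0.112 to 0.266 between groups. With the replicate block, 14, 16, 0, 23 and 18 genes were called in the same order of comparisons. With a sex term the counts were 13, 20, 0, 25 and 22. That term rests on the untreated WT mice, the only group with both sexes. It cannot be told apart from other differences between those mice. Groups of 2 limit precision, and genes with few reads, such as Col4a4, Col7a1 and Col11a1, rest on few counts.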
